A study of Mus musculus with 21 samples.

Results

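The genes described here are the 9 that encode tumour necrosis factor (Tnf), the interleukin 1 family members Il1a, Il1b, Il1rn and Il18, and the interleukins or interleukin subunits Il6, Il10, Il12b and Il23a. They were chosen by name from the 12393 genes measured, each gene being represented by the probe set with exactly 1 gene symbol and the highest mean over all 21 arrays. All 9 were measured, on 12 probe sets. RAW 264.7 cells, a macrophage-like line grown from a mouse tumour induced by Abelson leukaemia virus, were given amorphous silica particles for 2 h, and RNA was measured on Affymetrix arrays. Particles of 10 nm were given at 5, 20 or 50 µg/ml and particles of 500 nm at 250, 500 or 1000 µg/ml, called low, mid and high here, and the comparison was with untreated cells. Each of the 7 groups had 3 arrays. Exposure was in serum-free medium after culture with serum. The labels do not say whether untreated cells also lost serum, so the change of medium and the particles cannot be told apart. Plate formats differ between the growth and treatment descriptions, and no separate cultures are stated, so the p-values rest on array-to-array spread that could be technical alone.

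Macrophages release these cytokines after signals from microbes or damage, and transcription factors such as NF-kB and AP-1 drive many of the genes. TNF and IL-1 act early on neighbouring cells, IL-1 receptor antagonist (Il1rn) occupies the IL-1 receptor without signalling, and IL-10 restrains inflammation. IL-1β and IL-18 are made as precursors that inflammasome caspases cut, so messenger RNA alone does not show how much active cytokine leaves the cell. The transcripts of several of them are short-lived, because proteins such as tristetraprolin (Zfp36) bind their tails and start decay.

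The promoter windows of Tnf and Il1rn, the 2 members that rose most, are shown side by side with those of Il1b and Il6. Il1b and Il6 did not pass the test in any comparison of the main fit (all 21 arrays, unweighted, group as the only factor). Both passed in some comparisons with array weights, and Il1b also in other alternative fits. The RefSeq windows used here (GRCm38.p6) covered 7 of the 9 genes and gave 3 start sites for Il1rn, of which the most upstream is printed. All 9 genes have a locus in the reference, but no window was available here for Il10 and Il23a. Each line holds the 250 bases before the start site, 5′ to 3′ on the gene's strand, and capitals mark matches to a TATA box (TATAAA), the AP-1 site TGANTCA or the NF-kB consensus.
Tnf (chr17:35202008-35202257, minus strand): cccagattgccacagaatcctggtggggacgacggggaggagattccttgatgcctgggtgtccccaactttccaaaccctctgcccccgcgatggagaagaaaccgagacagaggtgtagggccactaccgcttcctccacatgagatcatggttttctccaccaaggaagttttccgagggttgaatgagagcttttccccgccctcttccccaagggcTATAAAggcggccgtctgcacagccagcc
Il1rn (chr2:24336610-24336859, plus strand): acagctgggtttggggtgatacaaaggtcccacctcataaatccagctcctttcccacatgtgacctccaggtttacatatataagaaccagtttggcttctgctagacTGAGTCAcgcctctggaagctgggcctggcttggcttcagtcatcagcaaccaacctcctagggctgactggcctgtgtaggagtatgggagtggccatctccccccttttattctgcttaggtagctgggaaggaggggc
Il1b (chr2:129371140-129371389, minus strand): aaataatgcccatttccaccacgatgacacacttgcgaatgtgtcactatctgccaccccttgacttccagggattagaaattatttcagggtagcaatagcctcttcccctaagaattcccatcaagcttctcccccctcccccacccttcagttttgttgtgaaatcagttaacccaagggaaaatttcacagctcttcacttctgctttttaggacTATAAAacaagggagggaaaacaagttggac
Il6 (chr5:30012864-30013113, plus strand): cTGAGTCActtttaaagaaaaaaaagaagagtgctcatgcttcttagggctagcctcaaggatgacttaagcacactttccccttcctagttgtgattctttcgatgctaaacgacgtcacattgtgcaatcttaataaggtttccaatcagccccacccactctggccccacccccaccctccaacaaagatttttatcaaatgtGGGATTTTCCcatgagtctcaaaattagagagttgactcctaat
Over the whole window, which runs on to 50 bases after the start, both strands were searched for these motifs and for the cyclic AMP response element. Upstream of the start, Tnf held a TATA box at position -29 and Il1b at -31. Il1rn held an AP-1 match at -141 in the most upstream of its 3 windows, and in no other. Il6 held an NF-kB match at -44 and an AP-1 match at -249. Of the windows not printed, that of Il1a held a TATA box at -32 and an AP-1 match at -12. That of Il18 held a TATA match at -175, and the most downstream of Il1rn a TATA match at 15, after the start. In all, 5 of the members' 9 windows held the TATA box, 3 the AP-1 site and 1 the NF-kB consensus. Among all 32851 windows, 13.6% held the TATA box, 7.81% the AP-1 site, 4.51% the NF-kB consensus and 1.79% the cyclic AMP element, which none of the members' 9 windows held. A match is a description of the letters and not a binding site.

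The deposited values were read as log10 and are given as log2, so every fold change rests on that reading. Arrays correlated at 0.983 to 0.998 within groups, and no 2 arrays were identical. In all 7 groups the array numbered 3 had the narrowest spread of values (SD 2.46 to 2.60 log2 units, against 2.58 to 2.67 on the others). Of 12 macrophage markers, 9 lay above the median gene by mean value, whereas none of the measured T cell, B cell, neutrophil, fibroblast or epithelial markers did. Above the lowest 25% of genes lay 11 of the 12 macrophage markers, 3 of 6 T cell, 1 of 4 B cell, 0 of 5 neutrophil, 2 of 5 fibroblast and 1 of 5 epithelial markers. Within bulk RNA, fewer responding cells and less RNA per cell cannot be told apart. Il1a, Il6, Il10 and Il12b had probe set values in the lowest 25%, where array values follow RNA amounts poorly.

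Tnf, the main early cytokine of macrophages, rose with both particles, by up to 6.08-fold with 500 nm silica. Its log2 values on the 3 arrays were 9.40, 9.38 and 9.11 in untreated cells. With 10 nm silica they were 10.15, 10.29 and 10.05 at 5 µg/ml, 11.27, 11.35 and 11.10 at 20 µg/ml, and 11.29, 11.23 and 10.95 at 50 µg/ml. With 500 nm silica they were 9.88, 9.75 and 9.79 at 250 µg/ml, 11.00, 10.97 and 10.87 at 500 µg/ml, and 12.00, 11.98 and 11.73 at 1000 µg/ml. All 18 arrays of exposed cells lay above all 3 arrays of untreated cells. Ordered by mean, the groups ran 500 nm at 1000, 10 nm at 20, 10 nm at 50, 500 nm at 500, 10 nm at 5 and 500 nm at 250 µg/ml, then untreated cells. Of these neighbours, the arrays of 10 nm silica at 50 µg/ml overlapped with those at 20 µg/ml and with those of 500 nm silica at 500 µg/ml, and the other neighbours did not overlap.

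**Figure D1:**
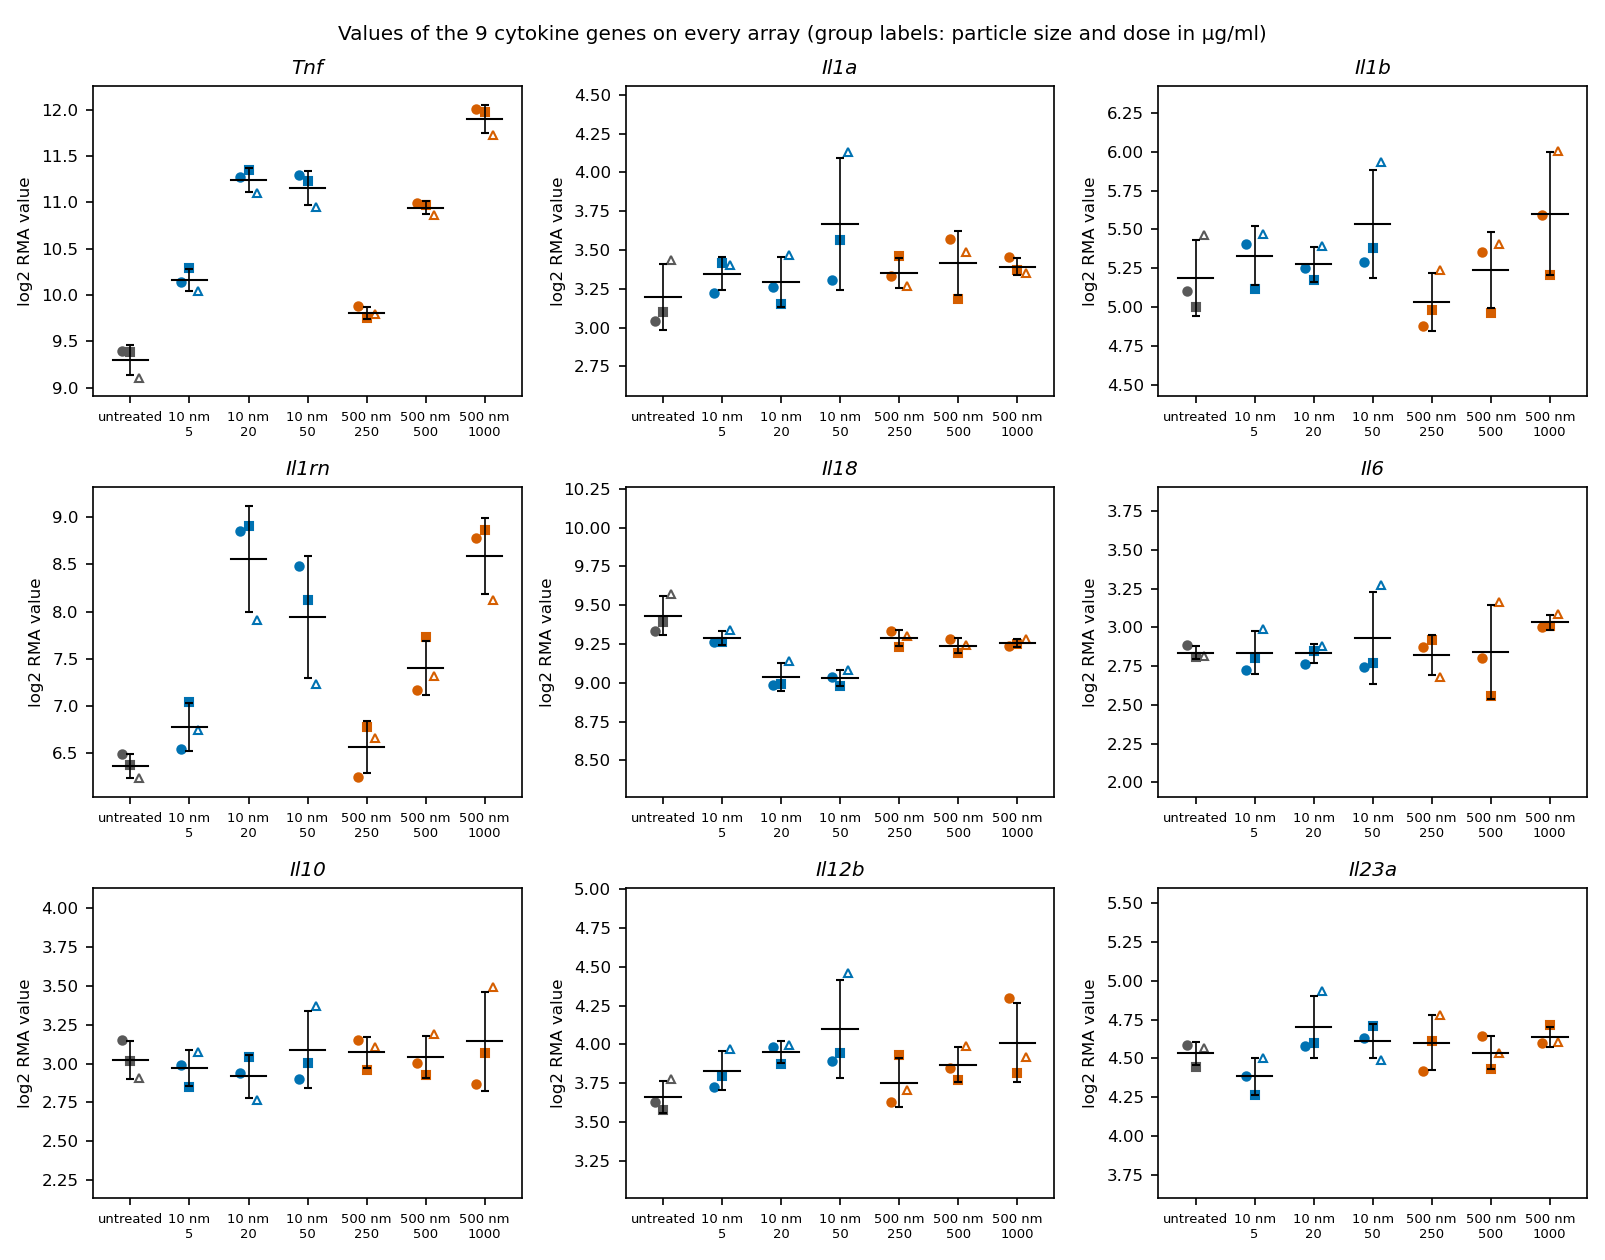
Log2 RMA value of each of the 9 genes (vertical axes, each with its own range) on every array, by group (horizontal axes, particle size and dose in µg/ml). Circles, squares and open triangles are arrays numbered 1, 2 and 3, bars are group means and whiskers 1 SD. Tnf and Il1rn stand well above untreated cells at the upper doses, while Il6 and Il10 stay between 2.56 and 3.50.

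Against untreated cells, Tnf was 1.82-fold higher at 5 µg/ml of 10 nm silica (log2 change 0.86 ± 0.12 SE, limma adjusted p = 0.000284). The rise was 3.84-fold at 20 µg/ml (log2 1.94, adjusted p = 7.32e-10) and 3.63-fold at 50 µg/ml (log2 1.86, adjusted p = 1.25e-09). Between these upper doses the difference was -0.08 (95% interval -0.33 to 0.16, adjusted p = 0.883). With 500 nm silica Tnf was 3.13-fold higher at 500 µg/ml (log2 1.64, adjusted p = 2.42e-08) and 6.08-fold higher at 1000 µg/ml (log2 2.60, adjusted p = 6.95e-12). At 250 µg/ml it was 1.42-fold higher and missed the threshold (log2 0.51, adjusted p = 0.0703), although it passed with quantile-normalised values (adjusted p = 0.00454) and with arrays centred on their medians (adjusted p = 0.029). Each further dose of 500 nm silica added to it, by 1.13 from low to mid (adjusted p = 1.68e-05) and by 0.96 from mid to high (adjusted p = 0.000107). Of the 9 genes, 2 passed between the low and mid doses of 10 nm silica, against 4.70% of all genes. Between its mid and high doses 0 passed, against 0% of all genes (2 members had an unadjusted p under 0.05 by limma). With 500 nm silica 1 passed between the low and mid doses, against 0.436%, and 2 between the mid and high doses, against 2.03%. Il1rn was among these 2 (1.19, adjusted p = 0.0385), and 6 of 15 alternatives ended its call.

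Il1rn, the receptor antagonist of IL-1, rose at the upper doses of both particles, by up to 4.67-fold. Its log2 values were 6.49, 6.38 and 6.23 in untreated cells. With 10 nm silica they were 6.54, 7.05 and 6.74 at 5 µg/ml, 8.85, 8.91 and 7.91 at 20 µg/ml, and 8.48, 8.12 and 7.23 at 50 µg/ml. With 500 nm silica they were 6.25, 6.78 and 6.66 at 250 µg/ml, 7.17, 7.73 and 7.31 at 500 µg/ml, and 8.78, 8.86 and 8.13 at 1000 µg/ml. At the mid and high doses every array lay above untreated cells, and at both upper 10 nm doses and the top 500 nm dose array 3 was the lowest of its group.

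The rise was 4.56-fold at 20 µg/ml of 10 nm silica (log2 2.19 ± 0.29 SE, adjusted p = 3.09e-05) and 2.98-fold at 50 µg/ml (log2 1.57, adjusted p = 0.000713). At 1000 µg/ml of 500 nm silica it was 4.67-fold (log2 2.22, adjusted p = 2.19e-05). At 500 µg/ml Il1rn was 2.05-fold higher without passing (log2 1.04, adjusted p = 0.0673). It did pass on another of its probe sets, 1451798_at, by 1.36 (adjusted p = 4.04e-06 over all probe sets), and when the 7 arrays numbered 3 were left out, by 1.01 (adjusted p = 0.0219), an alternative chosen after seeing the data. That probe set also passed at 5 µg/ml of 10 nm silica, by 0.85 (adjusted p = 0.00231), where the chosen one gave 0.41 (adjusted p = 0.888).

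On 1451798_at the arrays read 8.23, 8.0 and 8.22 with 50 µg/ml of 10 nm silica, 8.55, 8.42 and 8.29 with 1000 µg/ml of 500 nm silica, and 5.88, 5.62 and 5.95 in untreated cells. The SD was 0.128 against 0.641 on the chosen probe set with 50 µg/ml of 10 nm silica, and 0.131 against 0.404 with 1000 µg/ml of 500 nm silica, but 0.173 against 0.129 in untreated cells and 0.254 against 0.253 at 5 µg/ml of 10 nm silica. Its rise was 2.33 with 10 nm silica (adjusted p = 8.01e-10) and 2.60 with 500 nm silica (adjusted p = 1.92e-10). The remaining probe set, 1425663_at, rose by 1.34 with 10 nm silica (adjusted p = 2.91e-05) and by 1.27 with 500 nm silica (adjusted p = 5.01e-05) at those doses, and there array 3 was the highest. All 3 probe sets rose at both top doses, and they differed in the size of the rise and in the standing of array 3.

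**Figure D2:**
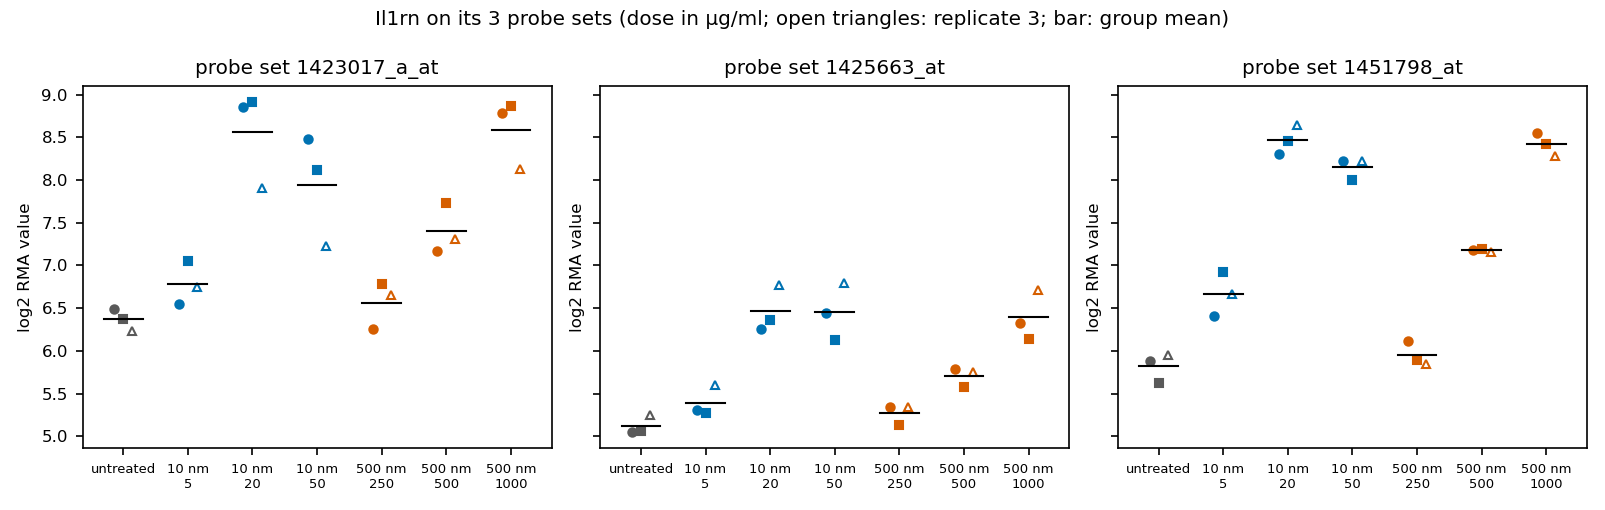
Log2 RMA value of Il1rn on its 3 probe sets (panels, common vertical axis) by group (horizontal axis, dose in µg/ml); circles, squares and open triangles are arrays 1, 2 and 3 and bars are group means. At the top doses array 3 is lowest on 1423017_a_at and highest on 1425663_at, and all 3 probe sets are above untreated cells.

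Il18, whose product is stored as a precursor in resting macrophages and drives interferon γ production, was the 1 member that fell, and the fall was small. Its values were 9.34, 9.39 and 9.57 in untreated cells. With 10 nm silica they were 9.26, 9.26 and 9.34 at 5 µg/ml, 8.98, 8.99 and 9.14 at 20 µg/ml, and 9.04, 8.98 and 9.08 at 50 µg/ml. With 500 nm silica they kept between 9.19 and 9.34 at all 3 doses. Il18 was 1.32-fold lower at both 20 µg/ml (log2 -0.40 ± 0.085 SE, adjusted p = 0.00377) and 50 µg/ml of 10 nm silica (log2 -0.40, adjusted p = 0.00249). The call at 50 µg/ml was lost after quantile normalisation (-0.29, adjusted p = 0.0579). Both calls were lost with only the groups compared in the fit (adjusted p = 0.115 at 20 µg/ml and 0.11 at 50 µg/ml). At 1000 µg/ml of 500 nm silica the difference was -0.18 (adjusted p = 0.176), and 10 nm and 500 nm silica at their top doses differed by -0.22 (95% interval -0.40 to -0.04, adjusted p = 0.137).

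Il1b and Il1a encode the 2 agonists of the IL-1 receptor. Il1b read 5.29, 5.38 and 5.94 at 50 µg/ml of 10 nm silica, 5.59, 5.21 and 6.0 at 1000 µg/ml of 500 nm silica, and 5.10, 5.00 and 5.46 in untreated cells. The groups overlapped, and the differences of 0.35 with 10 nm (adjusted p = 0.214) and 0.41 with 500 nm silica (adjusted p = 0.175) did not pass in the main fit. At each of these doses Il1b passed in 2 of 15 alternatives. These were array weights (limma adjusted p = 0.0156 with 10 nm and 0.00106 with 500 nm silica) and the replicate block described below. Il1a read 3.31, 3.56 and 4.13 at 50 µg/ml of 10 nm silica, against 3.04, 3.10 and 3.44 in untreated cells, a rise of 0.47 at the edge of the threshold (adjusted p = 0.0499) in groups that overlapped. Without array 3 of the 10 nm group it was 0.24 (adjusted p = 0.302), and without all arrays numbered 3 it was 0.36 (adjusted p = 0.0855). The call was ended by 7 of 14 alternatives.

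Il12b encodes the p40 chain shared by IL-12 and IL-23, and Il23a the chain specific to IL-23. Il12b read 3.90, 3.94 and 4.46 at 50 µg/ml of 10 nm silica, against 3.63, 3.58 and 3.78 in untreated cells, a rise of 0.44 (1.35-fold, adjusted p = 0.0403). It was 0.26 without array 3 of the 10 nm group (adjusted p = 0.239) and 0.32 without all arrays numbered 3 (adjusted p = 0.145). On its other probe set it was 0.16 (adjusted p = 0.288), and 7 of 15 alternatives ended the call. At 1000 µg/ml of 500 nm silica Il12b read 4.30, 3.82 and 3.92, all above untreated cells, and did not pass (0.35, adjusted p = 0.116). In the main fit Il23a did not pass at any dose. Its differences at the top doses were 0.08 (95% interval -0.16 to 0.32) with 10 nm and 0.11 (-0.13 to 0.35) with 500 nm silica.

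Il6, a cytokine of fever and the acute phase response, and Il10 did not pass in any comparison of the main fit. With array weights Il6 passed between the 10 nm and 500 nm top doses (-0.23, limma adjusted p = 0.0354), where the main fit gave -0.10 (adjusted p = 0.755). Against untreated cells, Il6 at the top doses differed by 0.09 (-0.21 to 0.39) with 10 nm and 0.19 (-0.11 to 0.50) with 500 nm silica. Il10 differed by 0.06 (-0.25 to 0.37) with 10 nm and 0.12 (-0.19 to 0.43) with 500 nm silica. These intervals bound the deposited values, and for probe sets this dim a change in RNA could be larger than it reads.

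Among the 9 genes, 1 passed at 5 µg/ml of 10 nm silica, where 0.767% of all genes did. At 20 µg/ml 3 passed (2 higher, 1 lower), against 10.6% of all genes (3.22% higher and 7.39% lower), and at 50 µg/ml 5 passed (4 higher, 1 lower), against 20.2%. With 500 nm silica none passed at 250 µg/ml by limma, where 1 had an unadjusted p under 0.05 and 0.428% of all genes passed. At 500 µg/ml 1 passed, against 2.77% of all genes, and at 1000 µg/ml 2 passed, against 15.3%. The 3 arrays of exposed cells lay wholly above or wholly below untreated cells for 4 of the 9 genes at 50 µg/ml of 10 nm silica, against 33.3% of all genes, and for 6 at 1000 µg/ml of 500 nm silica, against 31.1%. The median difference of the 9 genes was 0.35 with 10 nm silica, where that of all genes was 0.036, and 0.20 with 500 nm silica, where that of all genes was 0.073. A test for any difference among the 7 groups was passed by Tnf (adjusted p = 3.19e-11), Il1rn (adjusted p = 1.38e-05) and Il18 (adjusted p = 0.0142), and by 16.2% of all genes.

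The labels give no doses of equal mass for the 2 sizes. Dose divided by diameter, which is proportional to the surface area of equally dense smooth spheres, was 1, 4 and 10 times the low dose for 10 nm silica and 1, 2 and 4 times for 500 nm silica, starting from an equal nominal area. Clumping of particles was not accounted for. At the lower equal area, 5 µg/ml of 10 nm against 250 µg/ml of 500 nm silica, Tnf differed by 0.35 (95% interval 0.11 to 0.60), which did not pass over all genes (adjusted p = 0.806), and 0 of the 9 genes passed, against 0.0888% of all genes. At the higher equal area, 20 µg/ml against 1000 µg/ml, Tnf was 1.58-fold lower with 10 nm silica (log2 -0.66, adjusted p = 0.0028), the 1 member that passed, against 2.85% of all genes. Il1rn differed there by -0.03 (95% interval -0.64 to 0.58).

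**Figure D3:**
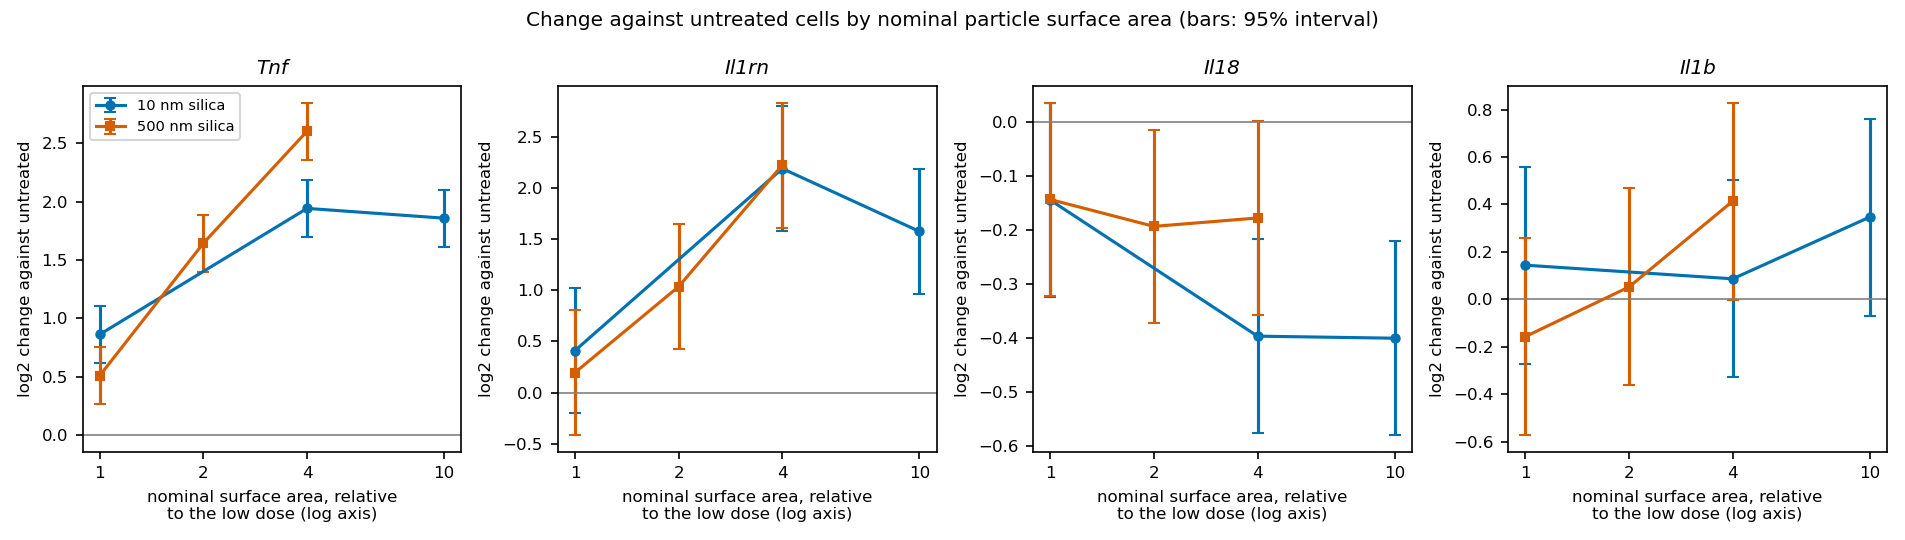
Log2 change against untreated cells (vertical axes) of Tnf, Il1rn, Il18 and Il1b by nominal surface area relative to the low dose (horizontal log axes), for 10 nm (circles) and 500 nm silica (squares), with 95% intervals. At 4 times the low area Tnf stands at 1.94 with 10 nm and 2.60 with 500 nm silica, while Il1rn stands at 2.19 with 10 nm and 2.22 with 500 nm silica.

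At the top doses Tnf was 1.68-fold lower with 10 nm silica, at 11.29, 11.23 and 10.95, than with 500 nm silica, at 12.00, 11.98 and 11.73 (log2 -0.75, adjusted p = 0.000394). It was the 1 member that passed there, against 7.52% of all genes. With only those 2 groups in the fit it missed the threshold at the same size of difference (adjusted p = 0.058), and so did the difference at equal area (adjusted p = 0.0583). Il1rn differed by -0.65 at the top doses (95% interval -1.26 to -0.04, adjusted p = 0.216), by -0.27 on 1451798_at and by 0.06 on 1425663_at. The fitted slope per 2-fold increase in dose was 0.32 with 10 nm silica (adjusted p = 4.58e-06) and 1.05 with 500 nm silica (adjusted p = 4.94e-10) for Tnf, and 0.39 with 10 nm (adjusted p = 0.00495) and 1.01 with 500 nm silica (adjusted p = 0.000112) for Il1rn. With 10 nm silica the slopes average over unlike steps. Between the low and mid doses Tnf differed by 1.08 (adjusted p = 7.12e-06) and Il1rn by 1.78 (adjusted p = 0.000758), mid minus low. Between the mid and high doses Tnf differed by -0.08 and Il1rn by -0.61 (95% interval -1.22 to -0.0027, adjusted p = 0.875), high minus mid. The slopes of Tnf differed by -0.73 ± 0.068 SE (adjusted p = 2.27e-06), and those of Il1rn by -0.62 (adjusted p = 0.0592), over dose ranges that do not overlap. For the slopes 3 of the 9 genes passed with 10 nm silica, against 12.2% of all genes, and 2 with 500 nm silica, against 8.20%. The 10 nm slope of Il18, -0.08 (adjusted p = 0.0441), is among the 3, and 12 of 18 alternatives ended its call. For the difference of slopes, tested after seeing the data, 1 passed, against 2.52%.

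**Figure D4:**
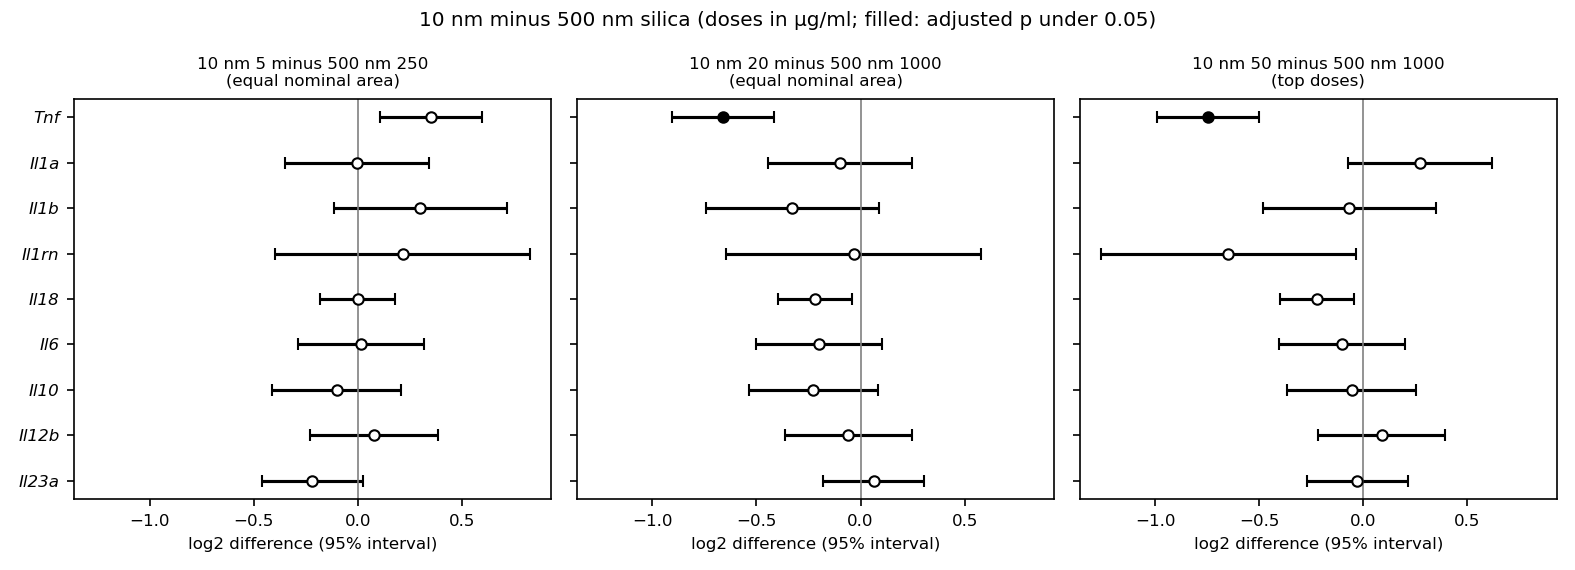
Log2 difference between 10 nm and 500 nm silica (horizontal axes, with 95% intervals; values below 0 are lower with 10 nm) for the 9 genes (rows) at 2 pairs of equal nominal area and at the top doses. Filled points have an adjusted p under 0.05, which Tnf alone has in the panels of the higher equal area and of the top doses.

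Across the 21 arrays the values of Tnf and Il1rn ran together (Pearson r = 0.914), and Il18 ran against both (r = -0.646 with Tnf and -0.723 with Il1rn). These coefficients describe arrays that share the same exposures. Among all genes, the closest to Tnf were Vps37c (r = 0.978), Osgin2 (r = 0.977) and Ppp1r15a (r = 0.971). Those closest to Il1rn were Hilpda (r = 0.963), Plk3 (r = 0.955) and Crem (r = 0.94), and those closest to Il18 were E2f6 (r = 0.957), Lcmt1 (r = 0.951) and Zfp955a (r = 0.939). For the dim genes, Il1a was closest to Mmd2 (r = 0.889), Sod3 (r = 0.844) and Zcchc3 (r = 0.839), and Il12b to Htr5b (r = 0.879), Palld (r = 0.876) and Ehf (r = 0.867).

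Other cytokines, not limited to the families of the members, changed in both directions. Of 35 measured, 7 rose and 5 fell at 50 µg/ml of 10 nm silica, and 6 rose and 3 fell at 1000 µg/ml of 500 nm silica. Over all genes, 7.58% rose and 12.6% fell with 10 nm silica, and 5.31% rose and 10.0% fell with 500 nm silica. The median change of the 35 was 0.14 with 10 nm silica, where that of all genes was 0.036, and 0.19 with 500 nm silica, where that of all genes was 0.073. Over 15 alternatives, which include leaving out single arrays, the counts were 3 to 16 higher and 1 to 5 lower with 10 nm silica, and 4 to 13 higher and 2 to 4 lower with 500 nm silica. Lif, an IL-6 type cytokine, averaged 6.03 ± 0.36 with 10 nm silica, 5.07 ± 0.30 with 500 nm silica and 4.31 ± 0.17 in untreated cells (SD, n = 3 each), rises of 1.71 with 10 nm (adjusted p = 2.57e-07) and 0.76 with 500 nm silica (adjusted p = 0.00223). Csf1, the growth factor of macrophages, rose by 0.97 with 10 nm (adjusted p = 3.58e-05) and 1.59 with 500 nm silica (adjusted p = 7.16e-08). Il16, a chemoattractant of CD4+ cells, fell by 1.38 with 10 nm (adjusted p = 5.43e-07) and 1.54 with 500 nm silica (adjusted p = 1.43e-07). The top doses of the 2 sizes differed for Lif (0.95 higher with 10 nm, adjusted p = 0.000695) and for Csf1 (-0.63, adjusted p = 0.00604).

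Of 16 receptors and binding proteins of these cytokines, 2 rose and 2 fell with 10 nm silica at the top dose, and 1 rose and 2 fell with 500 nm silica. Over the alternatives these counts were 0 to 4 higher and 0 to 4 lower with 10 nm silica, and 0 to 4 higher and 1 to 3 lower with 500 nm silica. For comparison, 7.58% of all genes rose and 12.6% fell with 10 nm silica, and 5.31% rose and 10.0% fell with 500 nm silica. Il6ra, the receptor chain that binds IL-6, averaged 8.43 ± 0.14 with 10 nm silica, 7.15 ± 0.15 with 500 nm silica and 7.96 ± 0.14 in untreated cells. It rose by 0.47 with 10 nm silica (adjusted p = 0.0307), a call that 6 of 15 alternatives ended, fell by 0.81 with 500 nm silica (adjusted p = 0.000716), and differed between the sizes by 1.29 (adjusted p = 1.72e-05). Il6st, the signalling chain shared by IL-6 type cytokines, fell by 0.74 with 10 nm silica (adjusted p = 0.011), but by 0.38 as the mean of its probe sets, which did not pass. Il10ra, the ligand-binding chain of the IL-10 receptor, fell by 0.61 with 10 nm (adjusted p = 0.0173) and 0.56 with 500 nm silica (adjusted p = 0.0317), and neither call held as the mean of its probe sets. Of 15 alternatives, 4 ended the call with 10 nm silica and 7 that with 500 nm silica.

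Among 25 genes of signalling below these receptors, 2 rose and 5 fell with 10 nm silica and 3 rose and 6 fell with 500 nm silica at the top doses. The alternatives gave 0 to 6 higher and 3 to 11 lower with 10 nm silica, and 1 to 5 higher and 2 to 9 lower with 500 nm silica. Shares over all genes were 7.58% higher and 12.6% lower with 10 nm, and 5.31% higher and 10.0% lower with 500 nm silica. Traf1, an adaptor of TNF receptors, averaged 7.03 ± 0.36 with 10 nm silica, 8.17 ± 0.063 with 500 nm silica and 6.34 ± 0.036 in untreated cells. It rose by 0.69 with 10 nm (adjusted p = 0.00632) and 1.83 with 500 nm silica (adjusted p = 2.21e-07), and the sizes differed by -1.14 (adjusted p = 0.000201). Jak2, a kinase of cytokine receptors, fell by 0.79 with 10 nm (adjusted p = 0.000337) and 0.71 with 500 nm silica (adjusted p = 0.000985). Socs3, the inhibitor of IL-6 signalling, fell by 0.70 with 10 nm (adjusted p = 0.0432), a call that 9 of 15 alternatives ended, and by 1.02 with 500 nm silica (adjusted p = 0.00546).

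Of 16 NF-kB genes and co-regulators, 3 rose and 4 fell with 10 nm silica, and 5 rose and 1 fell with 500 nm silica at the top doses. The alternatives gave 0 to 4 higher and 3 to 5 lower with 10 nm silica, and 4 to 8 higher and 1 to 2 lower with 500 nm silica. Rises were called for 7.58% of all genes with 10 nm and 5.31% with 500 nm silica. Falls were called for 12.6% with 10 nm and 10.0% with 500 nm silica. Of the 16, 6 were lower with 10 nm than with 500 nm silica and 0 higher, against 4.15% lower and 3.37% higher of all genes, and 2 to 11 were lower over the alternatives. Rel, the c-Rel subunit, averaged 7.35 ± 0.28 with 10 nm silica, 8.81 ± 0.25 with 500 nm silica and 6.83 ± 0.020 in untreated cells. It rose by 0.52 with 10 nm (adjusted p = 0.0203; 0.41 to 0.68 over 15 alternatives, of which 4 ended the call, among them leaving out untreated array 1 or 10 nm array 1 or 2) and 1.98 with 500 nm silica (adjusted p = 1.9e-08), and the sizes differed by -1.46 (adjusted p = 5.16e-06). Nfkbiz, an inducible nuclear cofactor of NF-kB, rose by 1.16 with 10 nm (adjusted p = 0.000447) and 1.25 with 500 nm silica (adjusted p = 0.000233). Nfkbie, which encodes the inhibitor IκBε, fell by 1.01 with 10 nm silica (adjusted p = 0.000389) and read -0.39 with 500 nm silica (adjusted p = 0.142).

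Of 13 genes of cytokine processing and release, 1 rose and 2 fell with 10 nm silica, and 1 rose and 2 fell with 500 nm silica. The alternatives gave 0 to 3 higher and 1 to 6 lower with 10 nm silica, and 0 to 4 higher and 1 to 4 lower with 500 nm silica. Among all genes 7.58% were higher and 12.6% lower with 10 nm silica, and 5.31% higher and 10.0% lower with 500 nm silica. Adam17, the protease that sheds TNF from the cell surface, rose by 0.74 with 10 nm silica (adjusted p = 0.00204) and read -0.05 with 500 nm silica (adjusted p = 0.858). Adam10, a related protease, fell by 0.77 with 500 nm silica (adjusted p = 3.72e-05) and read -0.14 with 10 nm silica (adjusted p = 0.349). Nek7, a partner of the NLRP3 inflammasome, fell by 0.80 with 500 nm silica (adjusted p = 0.00997), a call lost without untreated array 3 and with only the groups compared, and read -0.45 with 10 nm silica (adjusted p = 0.117). Its difference between the sizes, 0.35, did not pass (adjusted p = 0.365). The calls of both proteases were lost as means over their probe sets.

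Of 13 genes of cytokine messenger decay, 4 rose and 1 fell with 10 nm silica and 5 rose and 2 fell with 500 nm silica. The alternatives gave 4 to 7 higher and 0 to 1 lower with 10 nm silica, and 4 to 6 higher and 0 to 4 lower with 500 nm silica. All genes gave 7.58% higher and 12.6% lower with 10 nm silica, and 5.31% higher and 10.0% lower with 500 nm silica. Zfp36, which encodes tristetraprolin, averaged 9.87 ± 0.42 with 10 nm silica, 9.85 ± 0.29 with 500 nm silica and 7.75 ± 0.26 in untreated cells, rises of 2.12 with 10 nm (adjusted p = 9.85e-07) and 2.10 with 500 nm silica (adjusted p = 1.33e-06). Btg2, which recruits the deadenylase complex, rose by 1.76 with 10 nm (adjusted p = 0.00392) and 1.30 with 500 nm silica (adjusted p = 0.0318). Of 15 alternatives, 4 ended the 500 nm call of Btg2, 3 of them by leaving out untreated array 3 or 500 nm array 1 or 2. Dusp1, a phosphatase that turns off p38 and so shortens the life of these messengers, averaged 11.1 ± 0.14 with 10 nm silica, 11.2 ± 0.11 with 500 nm silica and 6.81 ± 0.063 in untreated cells, rises of 4.30 with 10 nm (adjusted p = 1.41e-16) and 4.43 with 500 nm silica (adjusted p = 3.99e-17). It was also the 1 gene of the list that passed at both low doses, by 1.18 with 10 nm (adjusted p = 2.64e-07) and 0.78 with 500 nm silica (adjusted p = 0.000119).

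**Figure D5:**
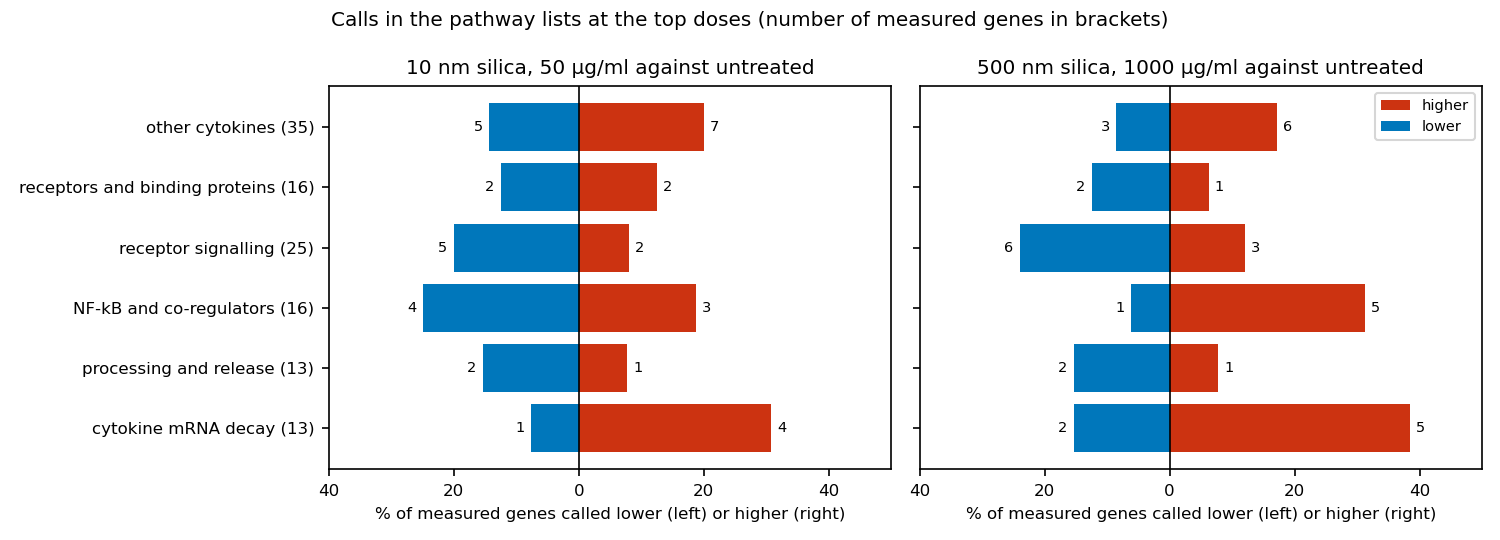
Share of the measured genes of each list (rows, number measured in brackets) called lower (left of 0) or higher (right of 0) against untreated cells, in percent, at the top dose of 10 nm and of 500 nm silica. Numbers beside the bars are gene counts; the decay list has 4 genes higher with 10 nm and 5 with 500 nm silica, and the NF-kB list 3 with 10 nm and 5 with 500 nm silica.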

How the data were processed

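Per the labels, total RNA of 21 samples of RAW 264.7 cells was copied from an oligo-dT primer into biotin-labelled RNA and hybridised to arrays, 3 for each of 7 groups taken from the sample titles. The deposited table holds values, read here as log10 values, that the authors made with RMA before deposition, per the submitters' processing notes. The RMA version is not given in the sources used here. The labels give no log base. Base 10 was inferred, since the maximum of 4.34 is then 22019 intensity units, against 20.3 in base 2, and multiplication by 3.32 turned the values into log2. RMA compresses changes of dim probe sets. Precision is limited by the number of arrays.

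Of 22690 probe sets, 64 were controls, and the platform annotation, in which names may be out of date, gave 20393 a single gene symbol, 691 more than 1 and 1606 no symbol. The 20380 single-symbol probe sets that are not controls gave 12393 genes, the brightest probe set standing for each. The models of limma 3.58.1 under R 4.3.3 (lmFit, then eBayes) were fitted on all genes and 21 arrays with group as the only factor, two-sided, with Benjamini-Hochberg adjustment over all genes of a comparison and calls at an adjusted p under 0.05. The script was tested on simulated data. Python 3.11.15 and matplotlib 3.10.9 drew the figures.

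The members, the pathway lists and the tests were chosen with earlier results of these data known. All members are named, and from each list up to 3 genes, those that changed most of the genes called at either top dose and not overlapping with untreated arrays. For each member called at a top dose, the 3 genes of highest Pearson correlation are named. Alternatives were a replicate block, quantile normalisation, median centring, a filter on dim genes, the mean over probe sets, single other probe sets, array weights, eBayes with trend and robust settings, only the groups compared, and leaving out each array or, added after seeing the data, all arrays numbered 3. Probe sets with several symbols or none were left out.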

Additional observations from a re-analysis of the deposited data

Results flagged for a closer look

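The results listed here are differences between the particle sizes that passed limma's test of the difference itself, among the members and the genes named from the pathway lists. The dose slope of Tnf was lower with 10 nm than with 500 nm silica by 0.73 per 2-fold increase in dose (log2 difference -0.73, adjusted p = 2.27e-06), over dose ranges that do not overlap. This difference of slopes was tested after seeing the data, and it kept passing in all 24 alternatives. The 10 nm slope averages over unlike steps, 1.08 from low to mid and -0.08 from mid to high. Tnf was also lower with 10 nm silica at the top doses (-0.75) and at the higher equal nominal area (-0.66), and both of these missed the threshold when only the 2 groups compared were fitted.

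At the top doses Rel (-1.46), Traf1 (-1.14), Csf1 (-0.63) and Nfkbie (-0.61) were lower with 10 nm than with 500 nm silica, and Il6ra (1.29), Lif (0.95), Adam17 (0.79) and Adam10 (0.63) were higher. The adjusted p was 0.0372 for Nfkbie, and 7 of 15 alternatives ended that call. Those of Csf1, Adam17 and Adam10 were lost as means over their probe sets. Il6ra was above untreated cells on all 3 arrays with 10 nm silica and below them on all 3 with 500 nm silica. The top doses differ in mass and in nominal area, so particle size and dose cannot be told apart here.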

How the results depend on the processing

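Of 25 called results on single members, 16 passed in every alternative run, among them all calls on Tnf except those at 5 µg/ml of 10 nm silica and between sizes at the top doses and at the higher equal area. Of 119 that were not called, 93 passed in none. With the replicate number as a block, the counts of members called were 1 at 250 µg/ml and 2 at 500 µg/ml of 500 nm silica, and 2 for the difference of slopes; Il1b passed at both top doses (adjusted p = 0.0284 with 10 nm and 0.0139 with 500 nm silica). Deviations from the group means correlated at 0.425 to 0.759 among arrays numbered 3 and 0.124 to 0.719 among those numbered 2, all 21 pairs of each being over 0.1, and at -0.24 to 0.529 among those numbered 1, with 9 of 21 pairs over 0.1. Of the 21 arrays, 12 correlated best with their own number, among them 7 of 7 numbered 3. The labels do not say what a number marks, and as not every pair passed 0.1 the numbers were not taken as pairs. With quantile normalisation they were 2 at 50 µg/ml of 10 nm silica, 1 at 250 and 2 at 500 µg/ml of 500 nm silica, and 2 for the difference of slopes. Median centring gave 1 at 250 µg/ml, and leaving out the dimmest 25% of genes, and with them 4 members, gave 3 at 50 µg/ml. The mean over probe sets gave 2 at 5 µg/ml of 10 nm silica, 2 at 500 µg/ml of 500 nm silica, 2 for the step between its low and mid doses and 2 for the difference of slopes. Array weights, whose estimation stopped before its tolerance was reached, gave 1, 3 and 5 at the rising doses of 500 nm silica, 1 for the step between the mid and high doses of 10 nm silica, 1, 3 and 5 between sizes at the lower equal area, the higher equal area and the top doses, 4 for the slope of 500 nm silica, 3 for the difference of slopes and 6 among the 7 groups; there the difference of Il12b between the top doses, 0.09 as reported, turned to -0.27 (adjusted p = 0.0249). Fitting only the groups compared gave 0 at 5 µg/ml and 2 at 50 µg/ml of 10 nm silica, 2 at 500 µg/ml of 500 nm silica, 1 for the step between its mid and high doses, and 0 between sizes at the higher equal area and at the top doses. Without the arrays numbered 3, chosen after seeing the data, they were 3 at 50 µg/ml, 2 at 500 µg/ml and 2 for the difference of slopes. Leaving out single arrays gave 3 to 5 at 50 µg/ml of 10 nm silica, 1 to 2 for the step between the mid and high doses of 500 nm silica and 1 to 2 for the difference of slopes. The counts given here are not all those that moved. The passes of Il1b with the block also raised the counts at both top doses. Array weights also added Il12b at the mid dose of 10 nm silica (limma adjusted p = 0.0206). At 50 µg/ml they added Il1b (adjusted p = 0.0156) and Il23a (adjusted p = 0.0466). Il18 was lost at the mid dose of 10 nm silica with only the groups compared (adjusted p = 0.115). The causes of these moves were not tested, beyond the fewer genes or arrays that some alternatives use.

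Over all genes, the counts called against untreated cells were 1.7 to 2.25 times those reported with the block, 2.4 to 12.8 times with array weights and 0.245 to 0.5 times with only the groups compared. Median centring moved the median change of all genes by 0.106 at 50 µg/ml of 10 nm silica and the share of calls that were higher to 62.7%, against 37.5%; at 1000 µg/ml of 500 nm silica that share became 57.4%, against 34.7%. No call on a member at the top doses was lost under it. The dim signal of Il1a, Il6, Il10 and Il12b and 3 arrays a group limit what could be detected.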
